A study of Drosophila melanogaster with 6 samples.

Results

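The regions described here are the stretches of enriched HP2 binding in the 2 Mb at the centromere side of the assembled Drosophila melanogaster arms 2L and 3L, the part of each arm sequence that runs into pericentric heterochromatin. A region was taken when its midpoint lay above position 21011544 on 2L or above position 22543557 on 3L, in release 5 coordinates. The 2L arm sequence is 23.0 Mb long and the 3L arm sequence 24.5 Mb. The rule found 282 of the 5179 regions in the combined list, 119 on 2L and 163 on 3L. In the replicate lists it found 331 of 2488 regions in replicate 1 (122 on 2L, 209 on 3L), 248 of 3132 in replicate 2 (92 and 156) and 286 of 3190 in replicate 3 (106 and 180).

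The data came from 14 to 16 h embryos of the wild-type strain Oregon-R, fixed with 1.8% formaldehyde. Chromatin immunoprecipitation with sequencing (ChIP-seq) used the antibody Ab2-90 against HP2, in 3 immunoprecipitation libraries with 3 inputs. For each immunoprecipitation there is 1 region list, made with the matching input as background, and the combined list was made from the replicate set. Whole embryos were used, so values are averages over all their cell types, and nothing in the labels tells if separate embryo collections were used for the 3 replicates.

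HP2, encoded by Su(var)2-HP2, is a partner of HP1a, the protein that reads methylated lysine 9 of histone H3 and coats fly heterochromatin. Pericentric heterochromatin is rich in transposon fragments and poor in genes, yet it holds genes such as light on 2L that are expressed within it. At the base of each arm the sequence passes from this chromatin into euchromatin, and the place of that change, the border, can be read from where a heterochromatin protein stops covering the DNA. Genes and sequences under the regions were not analysed here, since the annotation used was in release 6 coordinates.

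Replicate 1 stood apart before any comparison. In the 2 Mb interval its regions covered 420 kb of 2L and 694 kb of 3L, against 727 and 1222 kb in replicate 2 and 712 and 1147 kb in replicate 3. It had the most members of the 3 lists and the least covered sequence. The sources used here give no read totals. Depth is therefore unknown, no counting interval is given for a single region, and p-values rest on the 3 lists alone. The smallest two-sided p of an exact sign-flip permutation test over 3 lists is 0.25. It is reached whenever all 3 differences have the same sign, whatever their spread, so the value in each list is the result.

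On both arms HP2 regions formed a dense block that started at or near the arm end and stopped abruptly, and only scattered short regions lay beyond it. The border was placed where a single step best described coverage, the percent of bases inside regions, in 10 kb bins over 5 Mb from the arm end. On 2L it lay 900 kb from the end in replicates 2 and 3 and in the combined list, and 610 kb from the end in replicate 1. On 3L it lay 1540 kb from the end in replicates 2 and 3 and in the combined list, and 1510 kb from the end in replicate 1. The block was thus shorter on the assembled sequence of 2L in each list. Distances count from the end of the assembled arm and not from the centromere. Sequence not joined to the arms, 369 kb in 2LHet and 2555 kb in 3LHet, is left out of them. The mean border distance was 803 ± 167 kb on 2L and 1530 ± 17.3 kb on 3L (SD, n = 3 each). The difference, 2L minus 3L, was -640 kb in replicates 2 and 3 and -900 kb in replicate 1 (exact sign-flip permutation test, p = 0.25, lower on 2L in 3 of 3 lists). Replicate 1 set most of that spread, and without it the mean border lay at 900 kb on 2L and 1540 kb on 3L. Under another rule, the outermost 100 kb window covered over at least 50% with no break over 500 kb, 2L minus 3L was -600 kb in replicates 2 and 3 but 500 kb in replicate 1 (exact sign-flip permutation test, p = 0.50).

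**Figure D1:**
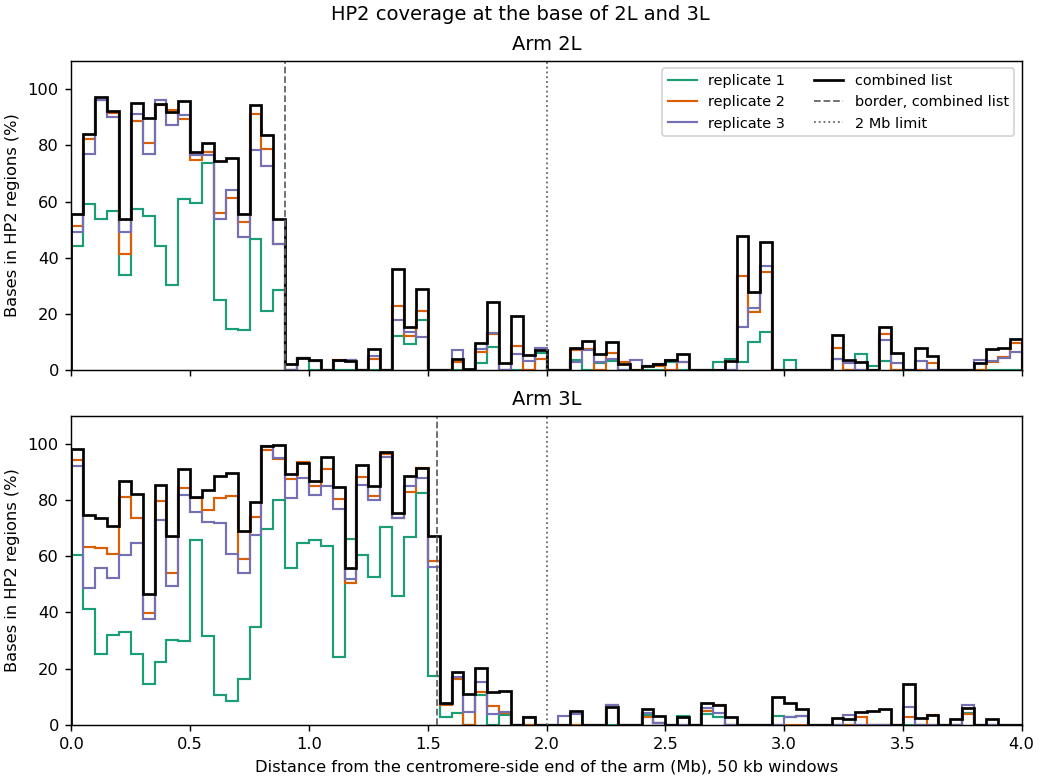
Percent of bases in HP2 regions (vertical axis) in 50 kb windows against distance from the centromere-side end of the arm in Mb (horizontal axis), for 2L (top) and 3L (bottom), with 1 line per list. Coverage drops at the dashed border of the combined list, 900 kb from the end on 2L and 1540 kb on 3L, and replicate 1 runs below the other lists inside both blocks, except from 1150 to 1200 kb on 3L, where it has 66.2% and replicate 2 has 50.4%.

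For 2L, the block from the arm end to 900 kb, called the 2L domain below, was covered over 43.3% in replicate 1, 74.8% in replicate 2 and 73.2% in replicate 3, a mean of 63.7% ± 17.7 (SD, n = 3). From the border to the 2 Mb limit the same lists had 2.77%, 4.94% and 4.87%. Over the whole rest of 2L they had 0.881%, 2.05% and 2.10%. Inside the domain, coverage of 100 kb windows ranged from 58.5% to 93.9% in replicate 2 and from 58.7% to 93.1% in replicate 3, so each of the 9 windows was covered over more than 50%. In replicate 1 the windows ranged from 19.9% to 66.4%, and 3 of 9 reached 50%.

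The last 100 kb inside the 2L border were covered over 24.7%, 61.9% and 58.7% in replicates 1, 2 and 3, and the first 100 kb outside over 2.11%, 2.13% and 2.15%. The outermost region inside the border started at 22117579 in replicate 1, 22116978 in replicate 2 and 22116784 in replicate 3, a range of 795 bp. Replicate 1 therefore reached the same outer edge as the other lists, although its step was placed at 610 kb. Its windows between 600 and 900 kb held 19.9%, 30.5% and 24.7%, against 45.6% to 66.4% nearer the end.

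Outside that edge the replicate lists had no region on 2L over 97417, 96800 and 96592 bp. The next region then appeared in all 3 lists at almost the same place, from 22018048 to 22020161 in replicate 1, from 22018047 to 22020177 in replicate 2 and from 22018039 to 22020191 in replicate 3. It was short and strong, with a score above 97.7%, 85.5% and 92.4% of the regions of its list. In the combined list it ran from 22018018 to 22020188 at the 90.9th percentile of scores. The combined list also had a weak region of 1045 bp, from 22108636 to 22109680, that lay 5021 bp outside the outermost region of the domain and inside the stretch that is empty in the replicate lists.

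Between the 2L border and the 2 Mb limit the combined list held 41 regions, of which 9 (22.0%) overlapped all 3 replicate lists by at least 1 bp and 13 (31.7%) overlapped none. These shares lay near those of the whole combined list, 21.0% and 33.5%. Coverage differed between windows. The window from 1300 to 1400 kb was covered over 6.10%, 11.4% and 8.93% in replicates 1, 2 and 3, and that from 1400 to 1500 kb over 13.7%, 16.5% and 12.6%. That from 1700 to 1800 kb had 5.45%, 9.64% and 10.5%. The window from 1500 to 1600 kb held no region in any of the 4 lists. The strongest region of this stretch found in all 3 lists ran from 21569614 to 21574298, scored 1.53 and lay 1440 kb from the end.

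For 3L, the domain from the arm end to 1540 kb was covered over 44.4% in replicate 1, 77.8% in replicate 2 and 72.6% in replicate 3, a mean of 64.9% ± 18.0 (SD, n = 3). From the border to the 2 Mb limit the lists had 2.25%, 5.03% and 6.34%. Over the rest of 3L they had 0.685%, 1.54% and 1.81%. Each of the 15 full windows of 100 kb inside the domain was covered over more than 50% in replicates 2 and 3, with lows of 59.7% and 54.0% and highs of 96.1% and 97.1%. In replicate 1 they ranged from 9.58% to 74.8%, and 7 of 15 reached 50%.

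The 3L domain reached the last base of the arm sequence in replicates 2 and 3 and ended 507 bp before it in replicate 1. On 2L the regions nearest to the end stopped 26.5, 24.4 and 25.4 kb short of it in replicates 1, 2 and 3, and 17.0 kb short of it in the combined list. So the last 17.0 kb of the 2L sequence held no region in any list, while 3L was covered to its end.

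On 3L coverage also dropped sharply at the border, and the empty stretch beyond it was shorter. The last 100 kb inside it were covered over 58.1%, 84.8% and 80.4% in replicates 1, 2 and 3, and the first 100 kb outside over 3.45%, 9.82% and 12.1%. The outermost regions inside it started at 23015111, 23007181 and 23007045, a range of 8066 bp, or 8.07 kb, that replicate 1 set. The gap to the next region outside was 23053, 14570 and 7641 bp in replicates 1, 2 and 3, shorter than on 2L in each list. Replicates 1, 2 and 3 had 2.00%, 8.21% and 10.7% from 1600 to 1700 kb, 5.22%, 9.17% and 9.48% from 1700 to 1800 kb, and 0%, 0% and 1.37% from 1900 to 2000 kb. In the combined list 23 regions lay between the border and the 2 Mb limit, of which 4 (17.4%) overlapped all 3 replicate lists and 9 (39.1%) overlapped none, again beside 21.0% and 33.5% of the whole list.

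At the 2 Mb limit itself both arms were nearly empty, so its exact place moved few regions. On 2L the nearest combined regions were 1 of 1559 bp from 21032530 to 21034088 inside it and 1 of 1847 bp from 20890614 to 20892460 outside. On 3L they were 1 of 1395 bp from 22635302 to 22636696 inside it and 1 of 1199 bp from 22412190 to 22413388 outside.

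**Figure D2:**
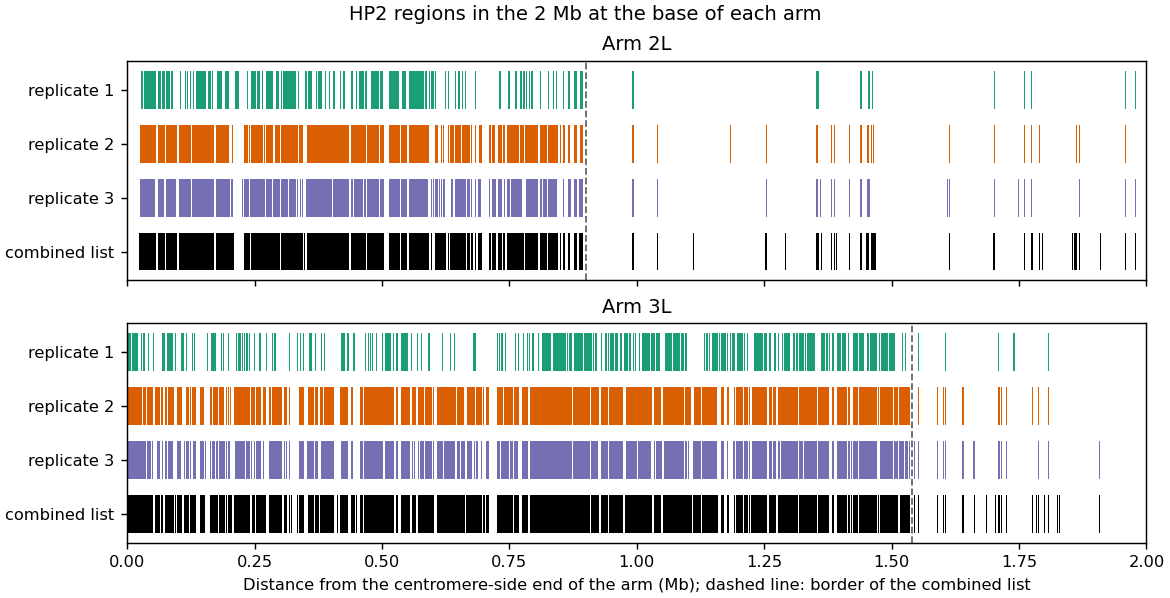
Positions of all HP2 regions in the 2 Mb at the base of 2L (top) and 3L (bottom), 1 row per list, against distance from the centromere-side end in Mb. Filled bars are regions and the dashed line is the border of the combined list. Regions are packed inside it and sparse outside, and replicate 1 shows the same outline in shorter pieces.

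Compared over the whole 2 Mb, HP2 covered less of 2L than of 3L in each list. The values were 21.0% on 2L and 34.7% on 3L in replicate 1, 36.4% and 61.1% in replicate 2, and 35.6% and 57.3% in replicate 3. The mean difference, 2L minus 3L, was -20.1 ± 5.71 percentage points (SD, n = 3; exact sign-flip permutation test, p = 0.25). Over the last 1 Mb alone the difference was -3.25 ± 5.06 percentage points and was positive in replicate 1, at 1.63 (exact sign-flip permutation test, p = 0.50). Inside their own borders the arms were close, with differences of -1.09, -3.09 and 0.616 percentage points in replicates 1, 2 and 3 (mean -1.19 ± 1.85, SD, n = 3, exact sign-flip permutation test, p = 0.50). Without replicate 1 the domain means were 74.0% ± 1.11 on 2L and 75.2% ± 3.73 on 3L (SD, n = 2 each). The gap between the arms over 2 Mb thus lay in the length of the covered block on the assembled sequence. A difference in density inside the block was not larger than the spread between lists.

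Each domain was cut at its midpoint, a cut chosen after seeing the data, into an outer part toward euchromatin and an inner part toward the arm end. Coverage of the parts differed in opposite directions on the 2 arms. Along 2L the change was not steady. The mean over the replicate lists was 60.5% in the 100 kb window at the arm end. The lowest window means, 45.8%, 55.1% and 48.4%, lay from 600 to 900 kb. On 2L the outer part (450 to 900 kb) was covered over 38.2%, 69.6% and 67.2% in replicates 1, 2 and 3, and the inner part over 48.3%, 79.9% and 79.2%. On 3L the outer part (770 to 1540 kb) was covered over 59.4%, 84.1% and 81.8%, and the inner part over 29.4%, 71.6% and 63.4%. Outer minus inner was -10.8 ± 1.02 percentage points on 2L and 20.3 ± 8.94 on 3L (SD, n = 3 each; exact sign-flip permutation test, p = 0.25 for each arm), with the same sign in 3 of 3 lists on either arm. The inner part of 3L was also where replicate 1 fell furthest behind: its window from 600 to 700 kb was covered over 9.58%, against 81.0% in replicate 2 and 66.4% in replicate 3.

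**Figure D3:**
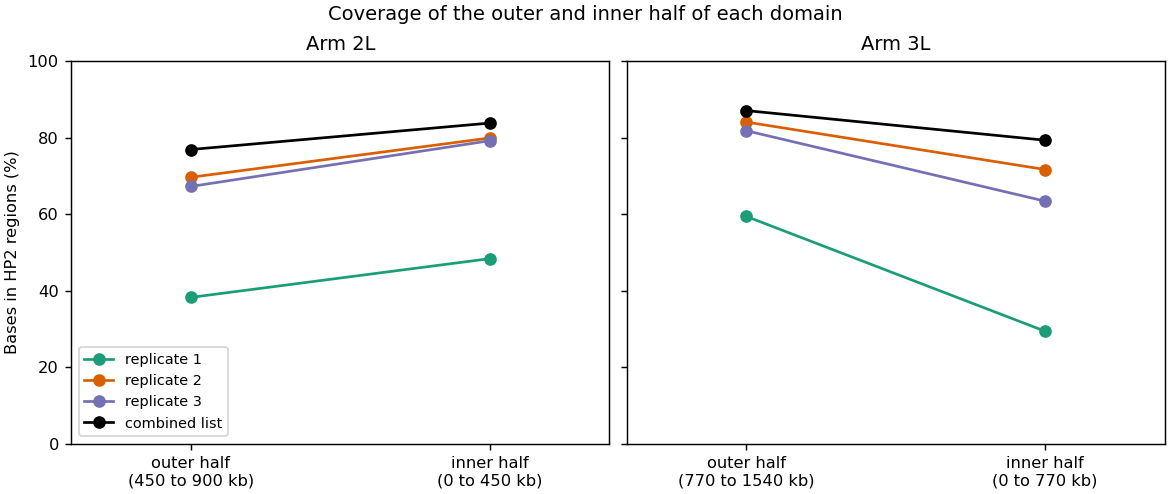
Percent of bases in HP2 regions in the outer and inner part of each domain, for 2L (left) and 3L (right), with 1 point and line colour per list. All 4 lines rise toward the inner part on 2L and fall toward it on 3L, for example 69.6% and 79.9% on 2L and 84.1% and 71.6% on 3L in replicate 2.

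Regions inside the domains were longer than those elsewhere on the same arm. On 2L their median length was 2495, 6074 and 4312 bp in replicates 1, 2 and 3, against 1806, 2030 and 2062 bp from the border to 2 Mb and 1786, 1887 and 1897 bp on the rest of the arm. On 3L it was 2092, 5832 and 4033 bp in the domain, against 1989, 2091 and 1977 bp from the border to 2 Mb and 1647, 1822 and 1864 bp on the rest of the arm. From the border to 2 Mb the replicate lists had only 13, 22 and 23 regions on 2L and 5, 11 and 14 on 3L. Each list gave the domain the longer median on both arms, by 2328 ± 1679 bp on 2L and 1967 ± 1821 bp on 3L over the stretch from the border to 2 Mb (SD, n = 3; exact sign-flip permutation test, p = 0.25). The borders were placed on coverage, to which region length contributes. That order is therefore partly fixed by construction, and the test cannot decide if lengths differ. Between the domains, the median of 2L exceeded that of 3L by 403, 242 and 279 bp in replicates 1, 2 and 3. In the combined list the order turned, at 4514 bp on 2L and 5283 bp on 3L.

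Long regions carried most of the covered bases in the combined list but not in replicate 1. In the combined list 22 of the 119 members on 2L and 47 of the 163 on 3L were longer than 10 kb, shares of 18.5% and 28.8%, where 5.83% of the whole combined list were that long. They held 525 kb on 2L and 932 kb on 3L, or 64.7% and 70.3% of the bases in members. The same shares were 16.0% on 2L and 15.4% on 3L in replicate 1, 61.7% and 59.1% in replicate 2, and 59.7% and 50.7% in replicate 3. Over whole lists they were 37.0% in the combined list and 14.5%, 39.7% and 35.8% in replicates 1, 2 and 3. Long regions were not particular to the arms. In the combined list 9.38% of 2LHet regions and 21.9% of 3LHet regions were longer than 10 kb, with 40.7% and 61.0% of the bases. All members over 10 kb lay inside the borders. In replicate 1 the counts were 4 on 2L and 8 on 3L (3.28% and 3.83%, against 2.53% of its list), in replicate 2 they were 20 and 39 (21.7% and 25.0%, against 8.11%), and in replicate 3 they were 21 and 30 (19.8% and 16.7%, against 6.90%). In replicate 1 the share of long members was therefore close to that of its whole list.

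The longest combined region of 2L found in all 3 replicate lists ran from 22578786 to 22658832, over 80.0 kb, centred 393 kb from the end. It was a single region in replicate 2 that covered 99.8% of it, 4 regions covering 97.8% in replicate 3, and 11 regions covering 37.9% in replicate 1. The longest of 3L ran from 23670332 to 23727036, over 56.7 kb, centred 845 kb from the end. It was a single region in replicates 2 and 3, covering 99.3% and 99.7% of it, and 6 regions covering 84.1% in replicate 1. Of the next 4 by length, those on 2L were 30.2 to 44.4 kb long and those on 3L 35.6 to 47.1 kb. On 3L 1 of these, from 24505476 to 24543557, ran to the arm end, and was covered over 68.5%, 95.4% and 96.3% in replicates 1, 2 and 3.

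Splitting of this kind was general. The 22 combined regions over 10 kb in the 2L domain held a mean of 3.55 replicate 1 regions, 1.32 replicate 2 regions and 1.73 replicate 3 regions. The 47 on 3L held 3.15, 1.60 and 2.09. Joining regions less than 5000 bp apart left 36, 12 and 10 blocks on 2L and 50, 22 and 27 on 3L in replicates 1, 2 and 3. With a distance of 20000 bp, 2L became 2, 2 and 1 blocks and 3L became 8, 1 and 1. The 3L domain then was a single block of 1536 kb in replicate 2 and 1537 kb in replicate 3.

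Gaps inside the domains were short. On 2L the median gap was 2814, 1613 and 1555 bp in replicates 1, 2 and 3, and on 3L 2192, 1067 and 1480 bp. The mean of these medians was 1994 ± 711 bp on 2L and 1580 ± 569 bp on 3L (SD, n = 3 each). Gaps over 10 kb numbered 13, 3 and 3 on 2L and 21, 6 and 4 on 3L. The longest gap of replicate 1 was 46.8 kb on 2L and 41.0 kb on 3L, against 21.6 and 17.1 kb in replicate 2 and 16.4 and 17.3 kb in replicate 3. So the extra uncovered sequence of replicate 1 lay partly in long gaps, which held 42.4% of its gap bases on 2L and 44.9% on 3L, where replicates 2 and 3 had 24.3% and 20.8% on 2L and 22.6% and 13.7% on 3L.

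**Figure D4:**
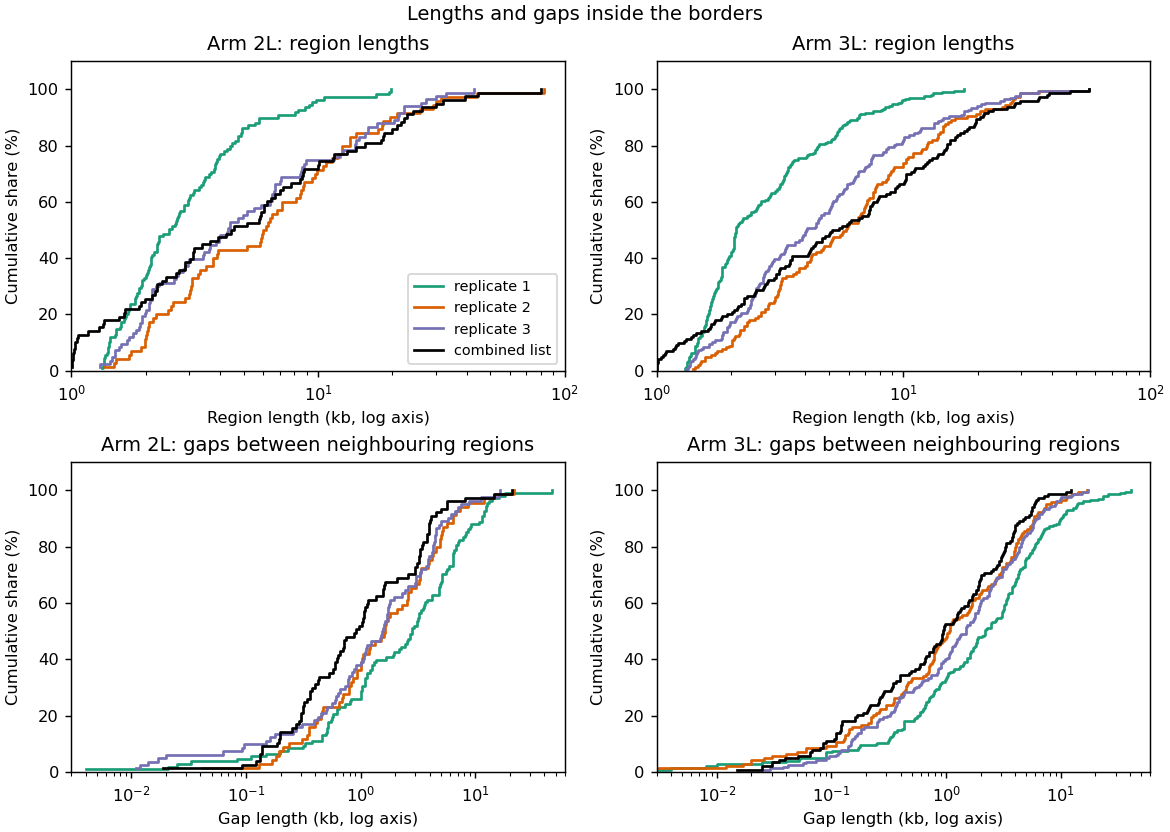
Cumulative share of HP2 regions by length (top) and of gaps between neighbouring regions by length (bottom) inside the borders of 2L (left) and 3L (right), with 1 line per list and log axes in kb. At the quartiles and the median the replicate 1 lines lie to the left of the others for lengths and to the right for gaps. The shortest regions, down to 1001 bp on either arm, belong to the combined list, so its length line crosses that of replicate 1. The median lengths of replicate 1 are 2495 bp on 2L and 2092 bp on 3L and its median gaps 2814 and 2192 bp.

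Stretches inside the borders that were free of HP2 regions in all 4 lists were mostly short. On 2L there were 72, with a median of 970 bp and a total of 145 kb of 900 kb, and on 3L 127, with a median of 968 bp and a total of 208 kb of 1540 kb. The longest on 2L was the arm end, from 22994569 to 23011544, followed by 22300757 to 22315147 (14391 bp) and 22498625 to 22506715 (8091 bp). On 3L the longest were 23820325 to 23832673 (12349 bp), 24210460 to 24220775 (10316 bp) and 24189851 to 24196758 (6908 bp). Whether these stretches hold sequence to which reads could be assigned was not tested.

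Sharing between the lists was read in bases. Of the 2L domain, 353 kb (39.2%) lay in regions of all 3 replicate lists, 288 kb in 2 lists, 86.2 kb in 1 list and 173 kb in none. Of the 3L domain, 606 kb (39.3%) lay in all 3, 504 kb in 2, 174 kb in 1 and 256 kb in none. The arms thus had nearly the same share of bases in all 3 lists. Of the replicate 1 bases, 92.6% on 2L and 91.4% on 3L also lay in replicate 2 regions, while 53.6% and 52.1% of replicate 2 bases lay in replicate 1 regions. Replicates 2 and 3 held 93.0% and 94.9% of each other's bases on 2L and 90.4% and 97.0% on 3L. The sequence covered in replicate 1 was therefore mostly a subset of that of the other lists. From the border to 2 Mb, 79.7% of replicate 1 bases on 2L and 68.8% on 3L lay in replicate 2 regions. Those bases came from only 13 replicate 1 regions on 2L and 5 on 3L. Replicate 2 covered 4.94% and 5.03% of that sequence, against 74.8% and 77.8% of the domains. The overlap shares inside and outside the border therefore cannot be compared as measures of agreement between lists.

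Sequence covered in all 3 lists came in many short runs. The 2L domain had 105 such runs with a median of 2281 bp, and the 3L domain 198 with a median of 2053 bp. The longest on 2L ran from 22959659 to 22979495 over 19837 bp, 32.0 kb from the arm end, and the longest on 3L from 23692792 to 23708878 over 16087 bp, 835 kb from it. With 2 of 3 lists required, the longest runs were 42791 bp on 2L, from 22841605 to 22884395, and 56501 bp on 3L, from 23670406 to 23726906.

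By region, 50 of the 119 combined members on 2L overlapped all 3 replicate lists by at least 1 bp, or 42.0% (exact Clopper-Pearson 95% interval 33.0% to 51.4%, counting error only). On 3L it was 92 of 163, or 56.4% (48.5% to 64.2%). Both intervals treat the members as independent, which was not tested. In the whole combined list 21.0% did, and on the rest of 2L and of 3L 14.4% and 11.1%. An overlap of 1 bp is easier to reach for a long region, and the members in all 3 lists had median lengths of 7464 bp on 2L and 9333 bp on 3L. With a 50% overlap both ways the shares were 10.1% on 2L and 12.9% on 3L, where the whole list had 8.73%, so under that rule they lay near the value of the list. When each replicate list had to cover at least 50% of a member, by all its regions summed, the shares were 21.8% on 2L and 30.7% on 3L, where the whole list had 12.1%. Without replicate 1, 63.0% and 73.6% overlapped both remaining lists. Members that overlapped no replicate list numbered 21 on 2L and 25 on 3L, or 17.6% and 15.3%, where the whole list had 33.5%. These were short, with medians of 1153 and 1215 bp, where such regions of the whole list had 1203 bp. Their median score percentile was 30.4 on 2L and 50.6 on 3L, against 81.8 and 79.1 for members in all 3 lists. Inside the 2L domain these medians were 65.2 for 8 regions in no list and 83.7 for those in all 3. Inside the 3L domain the order turned, at 82.5 for 16 regions in no list and 79.4. The highest score of a combined member on 2L, 3.37, belonged to a 1001 bp region in no replicate list.

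The deposited score of a region has no stated scale, so scores were ranked within their list. Members lay high in replicates 2 and 3 and near the middle in replicate 1. Inside the 2L domain the median region stood at percentile 54.5, 77.5 and 78.7 of its list in replicates 1, 2 and 3, against 35.4, 37.0 and 32.2 from the border to 2 Mb and 29.3, 20.4 and 23.9 on the rest of 2L. Inside the 3L domain it stood at 43.8, 69.9 and 68.9, against 10.2, 37.2 and 40.2 from the border to 2 Mb and 32.3, 16.0 and 21.3 on the rest of 3L. The medians from the border to 2 Mb rest on few regions, 13, 22 and 23 on 2L and 5, 11 and 14 on 3L. Scores inside the border were thus the higher ones on both arms in each list. In score units, the median of all members exceeded that of the rest of the arm by 0.112, 0.477 and 0.437 on 2L and by 0.0473, 0.435 and 0.357 on 3L (mean 0.342 ± 0.200 on 2L and 0.280 ± 0.205 on 3L, SD, n = 3, exact sign-flip permutation test, p = 0.25 each).

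The 2L domain ranked above the 3L domain, by 10.7, 7.61 and 9.75 percentile points in replicates 1, 2 and 3 (mean 9.37 ± 1.60, SD, n = 3, exact sign-flip permutation test, p = 0.25 and adjusted p = 0.33 over 24 comparisons). In the combined list the domains were level, at percentiles 78.2 on 2L and 77.7 on 3L. The top 10% of each list (10.0% of all its regions) held 13, 18 and 20 regions of the 2L domain, or 11.9%, 25.7% and 24.1% of them, in replicates 1, 2 and 3. It held 11, 25 and 21 of the 3L domain, or 5.39%, 17.2% and 12.7%. In replicate 1 the 2L share was near, and the 3L share below, that of the whole list.

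**Figure D5:**
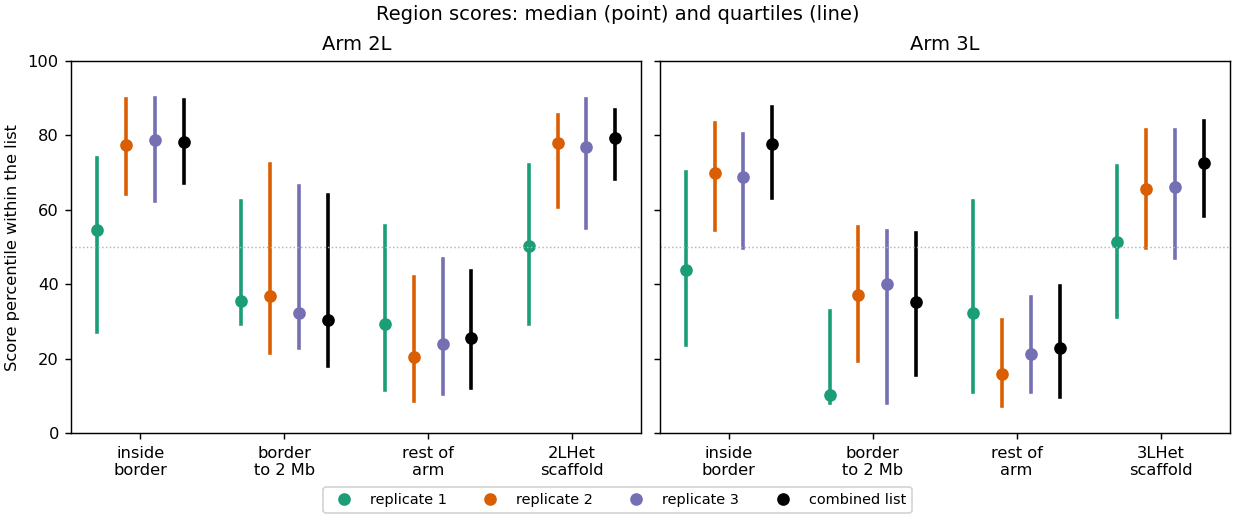
Percentile of region scores within their list (vertical axis; point, median; line, quartiles) inside the border, from the border to 2 Mb, on the rest of the arm and on the Het scaffold, for 2L (left) and 3L (right), with 1 colour per list. Medians inside the border lie above those of the stretch outside it in all 4 lists, for example 77.5 and 37.0 on 2L in replicate 2.

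Position and length went with score inside the domains. On 3L the outer part had the higher median percentile, at 49.9, 80.04 and 79.2 in replicates 1, 2 and 3, against 39.5, 63.6 and 61.4 for the inner part. On 2L the outer part stood at 54.0, 76.1 and 74.9 and the inner part at 55.3, 78.8 and 81.1. The order of the parts was thus the same for score as for coverage on each arm, but on 2L the parts lay closer in score than on 3L. Across regions of a domain, Spearman's rho between length and score was 0.73, 0.48 and 0.46 on 2L and 0.65, 0.53 and 0.56 on 3L, a description over 70 to 204 regions that share a library. It was weaker in the combined list, at 0.38 on 2L and 0.23 on 3L.

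The strongest combined member of 2L in all 3 replicate lists lay from 22259726 to 22266740, 748 kb from the end. Its best overlapping region stood at percentile 93.5, 99.8 and 99.7 in replicates 1, 2 and 3, and the lists covered 70.4%, 97.2% and 93.2% of it. The second, from 22462622 to 22474216, was a single region in each list, at percentiles 98.8, 99.1 and 98.3. The third, from 22955290 to 22987376, lay 40.2 kb from the end, was also the fourth longest of the arm and stood at 97.5, 98.7 and 98.1. The fourth and the fifth, from 22727310 to 22742784 and from 22680494 to 22710694, scored 1.89 and 1.76. These 5 were therefore spread over the domain and not gathered at 1 place.

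On 3L the strongest, from 24012832 to 24017014, was only 4183 bp long and lay 529 kb from the end, at percentiles 90.3, 99.5 and 98.5. The second, the third and the fifth lay close together in the outer part, from 23109884 to 23120062, from 23130282 to 23151272 and from 23156784 to 23159924, between 1385 and 1429 kb from the end. Their scores in the combined list were 2.43, 1.95 and 1.88. The second stood at percentiles 96.9, 99.6 and 98.9 and the third at 97.6, 98.1 and 96.9, while the fifth stood at 75.3 in replicate 1 and at 97.1 and 98.0 in replicates 2 and 3. The fourth, from 23662922 to 23670118, ended just before the longest region of the arm began and was covered over 44.4%, 76.9% and 70.1%.

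The Het scaffolds hold further pericentric sequence of the same arms that was not joined to the arm sequence. The proximal 2 Mb of 2L was covered over 21.0%, 36.4% and 35.6% in replicates 1, 2 and 3, against 23.9%, 46.2% and 40.5% of the 369 kb of 2LHet. That of 3L was covered over 34.7%, 61.1% and 57.3%, against 31.4%, 65.6% and 60.1% of the 2555 kb of 3LHet. Differences were -5.84 ± 3.57 percentage points for 2L, lower than the scaffold in 3 of 3 lists, and -1.32 ± 4.09 for 3L, lower in 2 of 3 (SD, n = 3; exact sign-flip permutation test, p = 0.25 and 0.75). Median score percentiles differed by -1.46 ± 3.55 on 2L and -1.39 ± 6.45 on 3L (exact sign-flip permutation test, p = 0.50 and 1), less than the spread between lists. The 2 Mb intervals include the sparse sequence outside the borders. Inside its border 2L was covered over 43.3%, 74.8% and 73.2% and 3L over 44.4%, 77.8% and 72.6%, above the scaffold of the same arm in 3 of 3 lists. Those borders were placed on coverage itself, so this order is a description with no test.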

How the data were processed

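HP2 ChIP-seq regions of 3 immunoprecipitation libraries and 1 combined list were used. The 3 inputs themselves were not analysed here. The submitters' processing notes name Bowtie 0.12.7. Per the file headers, coordinates follow FlyBase release 5. For the peak caller, its cutoff and the making of the combined list, the method is not given in the sources used here. The authors deposited a score per region whose scale is not stated, so it was ranked within a list. The proximal limit, regions and lists were chosen with earlier results of these data known.

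Region ends past the arm end were set to it. The border is the least-squares single step in coverage of 10 kb bins over 5 Mb, and the border of the combined list bounds the domain in every list. Gaps are uncovered stretches between neighbouring regions of a domain. Named are, per arm, the 5 strongest and 5 longest combined members overlapping all 3 replicate lists by at least 1 bp, the regions beside the border and the 3 longest stretches free of regions in all lists. The island from 21569614 to 21574298 and the runs covered in several lists were named after their values were seen. The cut of each domain at its midpoint was also chosen after seeing the data. Exact sign-flip permutation tests were two-sided over 3 lists, Benjamini-Hochberg adjusted over 24 comparisons of parts, where the smallest adjusted p was 0.33. Border and overlap code was tested on simulated lists. Alternatives changed the interval, bins, search range, border rule, score limit, merging, overlap rule, list and replicates. Computations ran in Python 3.11.15 with scipy 1.17.1, pandas 2.3.3, numpy 2.4.6 and, for figures, matplotlib 3.10.9.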

Additional observations from a re-analysis of the deposited data

Results flagged for a closer look

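Coverage of the outer minus the inner part of the domain was -10.8 percentage points on 2L and 20.3 on 3L, negative in 3 of 3 lists on 2L and positive in 3 of 3 on 3L. It is given here because the lists moved in opposite directions on the 2 arms, a contrast chosen after seeing the data. The difference between the arms, 2L minus 3L, was -40.1, -22.7 and -30.4 percentage points in replicates 1, 2 and 3 (exact sign-flip permutation test, p = 0.25, the smallest possible). In the combined list the values were -6.91 on 2L and 7.75 on 3L, the same directions with smaller sizes. With the 3 lists taken in pairs they ranged from -11.1 to -10.2 on 2L and from 15.4 to 24.2 on 3L.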

How the results depend on the processing

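Of 128 alternative values for 19 results, 101 were counted as kept, 26 moved further and 1 reversed. A tested difference was kept if its mean had the same sign, even where 1 list changed sign. Other values were kept within the spread between lists, or within the 95% interval for shares of members. With the 1 Mb interval the score difference on 3L counted as kept but was -0.0103 in replicate 1, against 0.337 and 0.294 in replicates 2 and 3 (exact sign-flip permutation test, p = 0.50). The reversed value was coverage inside the borders, 2L minus 3L, at 2.38 with regions at or above the median score of each list, against -1.19 with all regions. Alternatives for coverage inside the borders and for its outer and inner parts were chosen after seeing the data. With those regions the 3L border lay at 1510 kb, median gaps were 3380 bp on 2L and 2767.5 bp on 3L, and median lengths 4920 and 5329.7 bp. The rule of the outermost 100 kb window with at least 50% coverage followed outward without a break over 500 kb, put the 3L border at 1033 kb and 2L minus 3L at -233 kb (exact sign-flip permutation test, p = 0.50). In replicate 1 the rule stopped at 600 kb on 2L and 100 kb on 3L, so the difference turned to 500 kb there, against -600 kb in replicates 2 and 3. With 50 kb bins the 2L border was 900 kb in each replicate list. A 1 Mb interval gave 2L a coverage of 57.6%, a median length of 4258 bp and 52.5% of members in all 3 lists, with 2L minus 3L at -3.25 percentage points. A 3 Mb interval gave coverages of 22.2% on 2L and 34.4% on 3L, and the combined list 40.6% and 66.3%, with median gaps of 915 and 937 bp. Merging regions under 1 kb apart gave median lengths of 3830 bp on 2L and 6329 bp on 3L and median gaps of 3589 and 3452 bp. Members in all 3 lists fell to 10.1% and 12.9% with 50% overlap both ways and to 21.8% and 30.7% when each list had to cover 50% of the member, where the whole list had 8.73% and 12.1%. Leaving out each replicate gave 43.7% to 63.0% on 2L and 56.4% to 73.6% on 3L, the highest without replicate 1. Between immunoprecipitations and inputs, no paired analysis was possible because input values were not analysed here, although the labels' replicate numbers pair them. Arms and parts were compared within each list, and the sign-flip tests used these within-list differences. Changing the interval, the limit on scores or the merging changes which stretches or regions are measured. The cause of the shifts was not tested. Read depth is unknown, which limits what the absence of a region in a list can show.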

Other observations

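Outside the 2 Mb interval and apart from its limit, 2L had a further patch of HP2 regions, seen in every list. The window from 2800 to 2900 kb was covered over 6.42%, 27.1% and 18.8% in replicates 1, 2 and 3 and 37.8% in the combined list, and that from 2900 to 3000 kb over 6.75%, 17.5%, 18.5% and 22.8%. The windows on either side, from 2700 to 2800 kb and from 3000 to 3100 kb, held at most 3.31% and 1.72% in any list. On 3L the highest coverage of any window between 2000 and 3000 kb was 5.00%, in the combined list.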
